A study of Homo sapiens with 16 samples.

Results

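The binding sites of GABPα were compared between VCaP cells treated with vehicle and VCaP cells treated with the synthetic androgen methyltrienolone (R1881), with 1 ChIP-seq library for each treatment. These are 2 of the 16 samples of the series, 10 of which have peak files here. All peaks of both libraries were taken, and peaks of the 2 libraries that overlapped by at least 1 bp were joined into 1 site. This gave 19240 sites from 14183 peaks with vehicle and 15013 peaks with R1881, of which 6011 held a high confidence peak in at least 1 library.

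VCaP is an established prostate cancer (PC) cell line that carries a gene fusion that places the ETS factor ERG under an androgen-regulated promoter. For both treatments the cells were kept for 48 h in medium with charcoal-stripped serum, which is depleted of steroid hormones, and then received 1 nM R1881 or the same volume of ethanol. The time spent with R1881 is not given in the sources used here. A further VCaP library, named t0, and both replicates of Jurkat, a T-cell leukaemia line, were used for comparison, as were the ERG libraries of VCaP cells with vehicle and with R1881. The labels do not say what t0 is. Peak files hold no expression values, so the cell line could not be checked against marker genes.

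GABPα (written GABPa in the plots) is an ETS family transcription factor, which shares with ERG and the other members of the family a DNA-binding domain that reads a short GGAA core. It binds DNA together with its partner GABPβ and is known for its sites in the promoters of widely expressed genes, among them genes of mitochondrial and ribosomal function. The comparison asked which of its sites in PC cells were called with and without androgen, and whether sites changed place in the order of peak strength.

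Each peak has a score from the peak caller MACS, which is 10 times −log10 of the p-value. A score of 50, the lowest in these libraries, stands for a p-value of 1e-05. In the GABPα libraries a high confidence peak is a region of a second caller, SWEMBL, that meets a MACS peak. The files give no read numbers, and the depth of each library is unknown. Scores were therefore compared as percentile ranks within a library, from 0 for the lowest score to 100 for the highest. There were no replicates of either treatment, so no p-values are given. The 95% Wilson intervals cover the counting of sites only, and sites of 1 library are not independent samples. Jurkat replicates 1 and 2 were put through the same comparison, to show how far 2 GABPα libraries of 1 condition differed, although in another cell line.

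Most GABPα sites were called under both treatments. Of the 6011 high confidence sites, 4810 (80.0%, interval 79.0 to 81.0%) were high confidence in both libraries and are called kept. Another 802 sites (13.3%) were high confidence with vehicle only and are called lost, and 399 (6.64%) were high confidence with R1881 only and are called gained. The kept sites made up 85.7% of the 5612 high confidence sites with vehicle and 92.3% of the 5209 with R1881.

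The larger number of lost than of gained sites went with the larger high confidence set with vehicle. When the 5000 highest-scoring MACS peaks of each library were compared instead, 454 sites were found with vehicle only and 454 with R1881 only. With the 1000 highest-scoring peaks the numbers were 106 and 106. Equal sets bring the 2 numbers close together by construction, so the direction of the imbalance describes the size of the sets.

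A site that left the high confidence set was in most cases still a MACS peak. Of the lost sites, 708 (88.3%) had a MACS peak with R1881, and of the gained sites, 331 (83.0%) had a MACS peak with vehicle. This left 94 lost sites without any MACS peak with R1881, or 1.56% of the high confidence sites, and 68 gained sites without any MACS peak with vehicle, or 1.13%. The order of these 2 numbers turned with the set, since among the 5000 highest-scoring peaks of each library 11 sites with vehicle and 51 with R1881 had no MACS peak under the other treatment. Counted by MACS peak, 98.3% of the high confidence sites with vehicle were found with R1881, and 98.7% of those with R1881 were found with vehicle. A site without a MACS peak could still be called by SWEMBL. At lost sites SWEMBL called 24 regions with R1881, and at gained sites 13 with vehicle, without a MACS peak of that library. How many of the 94 and 68 sites held such a region was not counted.

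Of all high confidence sites, a larger share was kept between the treatments than between the Jurkat replicates, but the order depended on the library that was counted. Between Jurkat replicates 1 and 2, 6288 of 9175 high confidence sites (68.5%) were kept, 742 (8.09%) were found in replicate 1 only and 2145 (23.4%) in replicate 2 only. Jurkat sites without a MACS peak in the other replicate were 426 (4.64%) and 653 (7.12%). The kept sites made up 89.4% of the high confidence sites of Jurkat replicate 1 and 74.6% of those of replicate 2. In Jurkat cells too the larger number stood on the side of the larger set, with 7030 and 8433 high confidence sites. Whether VCaP replicates would differ as much as Jurkat replicates cannot be told from these files.

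**Figure D1:**
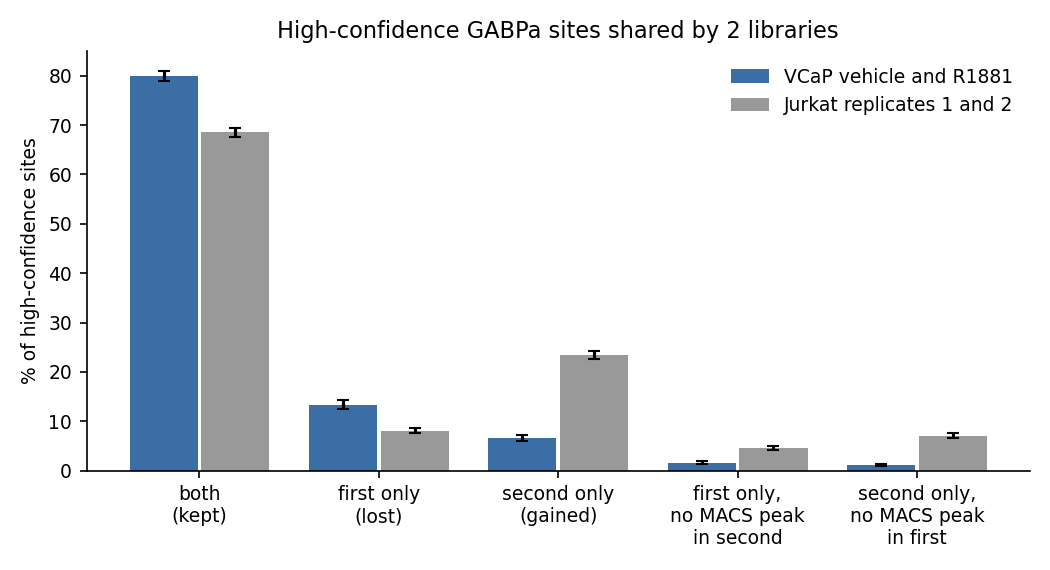
Share of high confidence GABPα sites (y axis, %) that were called in both libraries, in the first only or in the second only, for VCaP vehicle and R1881 (blue) and Jurkat replicates 1 and 2 (grey), with the first-only and second-only sites that had no MACS peak in the other library shown again at the right. Error bars are 95% Wilson intervals over sites, and the blue bar for both stands at 80.0% against 68.5% for the Jurkat pair.

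Over all 19240 sites, weak peaks included, the 2 treatments shared less. A MACS peak was present in both libraries at 9871 sites (51.3%, interval 50.6 to 52.0%). A further 4178 sites had a MACS peak without high confidence in vehicle alone, and 5029 in R1881 alone. The Jurkat replicates shared 15552 of 27838 sites (55.9%).

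High confidence sites of high rank recurred almost without exception. Of the 1419 sites in the top 10 rank points with vehicle, all 1419 were kept, and of the 1417 sites in the next 10 points, 1410 were kept. The kept share was 88.5% of high confidence sites between ranks 70 and 80, 61.1% between 60 and 70 and 50.6% between 50 and 60. With R1881 the 1502 sites of the top 10 points were all kept, and the shares below were 98.9%, 89.3%, 76.6% and 71.3%. In the bins from 80 to 90 down to 50 to 60, Jurkat replicate 2 kept 83.5%, 66.7%, 56.4% and 51.6%, and replicate 1, the smaller Jurkat set, kept 96.5%, 88.2%, 83.7% and 78.1%. Between ranks 50 and 70 replicate 1 thus kept more than either VCaP library did.

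**Figure D2:**
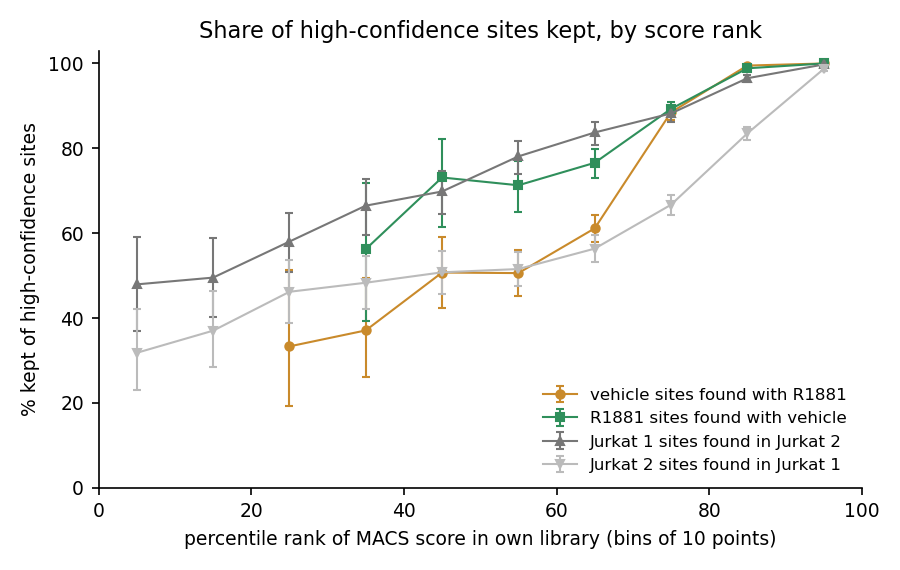
Share of high confidence GABPα sites that were also high confidence in the other library (y axis, %) against the percentile rank of the site's MACS score in its own library (x axis, bins of 10 points with at least 30 high confidence sites), with 95% Wilson intervals. Both VCaP lines reach 100% in the top bin, and below rank 70 the vehicle line lies under the R1881 line, at 61.1% against 76.6% between ranks 60 and 70.

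The strongest kept sites were taken as the 5 with the highest value of the lower of their ranks under the 2 treatments, so both scores had to be high. They lay on chromosomes 1, 9, 10 and 19 (positions are of hg18 and are given as the span of the joined MACS peaks). The site at chr1:28527668-28528656 scored 3192.5 with vehicle and 3213.87 with R1881. The site at chr10:15941557-15943327 scored 3187.91 and 3149.26, and the one at chr9:135272306-135273672 scored 3161.47 and 3177.96. These 5 sites had a GABPα peak at t0 and in both Jurkat replicates, and had no ERG peak with either treatment. Many scores near the top were tied, since 268 peaks with vehicle and 303 with R1881 had a score of exactly 3100, and 45 and 40 peaks had higher ones.

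Kept sites held close ranks under both treatments, while other sites with a MACS peak in both libraries did so less. Spearman's rho of the scores over the 9871 shared sites was 0.919, and over the 4810 kept sites 0.965. The points share an input library and a genome, and rho is given as a description across sites. For Jurkat replicates the values were 0.842 over 15552 sites and 0.851 over 6288 kept sites. The median absolute shift in rank was 3.86 points between treatments and 7.37 points between Jurkat replicates, with standard deviations over sites of 13.1 and 16.4 points. At the 4022 shared VCaP sites without high confidence, rho was 0.511 and the median absolute shift 10.7 points. The same class of the Jurkat pair, with 7456 sites, gave 0.574 and 11.5 points. Lost and gained VCaP sites with a MACS peak in both libraries had a rho of 0.681 and 0.387.

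Large shifts were few over all shared sites and went both ways. A rank higher by more than 25 points with R1881 was found at 435 sites (4.41%), and a rank lower by more than 25 points at 380 sites (3.85%). In the Jurkat pair the shares were 7.03% (1094 sites) and 6.02% (937 sites). Of the 815 VCaP sites with such a shift, 664 were not high confidence in either library, and 36 were kept sites. Among shared sites such a shift was found at 16.5% of those without high confidence, 17.5% of gained, 8.05% of lost and 0.748% of kept sites.

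Lost and gained sites came from the middle of the range. The kept sites had a median rank of 83.0 with vehicle and 84.0 with R1881. The lost sites with a MACS peak in both libraries had medians of 63.9 with vehicle and 60.1 with R1881, a median shift of −3.34 points, and 482 of 708 ranked lower with R1881. The gained sites had medians of 57.3 with vehicle and 68.1 with R1881, a median shift of 8.99 points, and 298 of 331 ranked higher with R1881. These directions follow in part from how the classes were made, since a site was placed by which library gave it a high confidence peak. The corresponding median shifts in the Jurkat pair were −8.66 points for sites found in replicate 1 only and 3.14 points for those found in replicate 2 only. The gained sites without a MACS peak with vehicle had a median rank of 57.6 with R1881, and the lost sites without a MACS peak with R1881 had a median rank of 42.3 with vehicle.

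**Figure D3:**
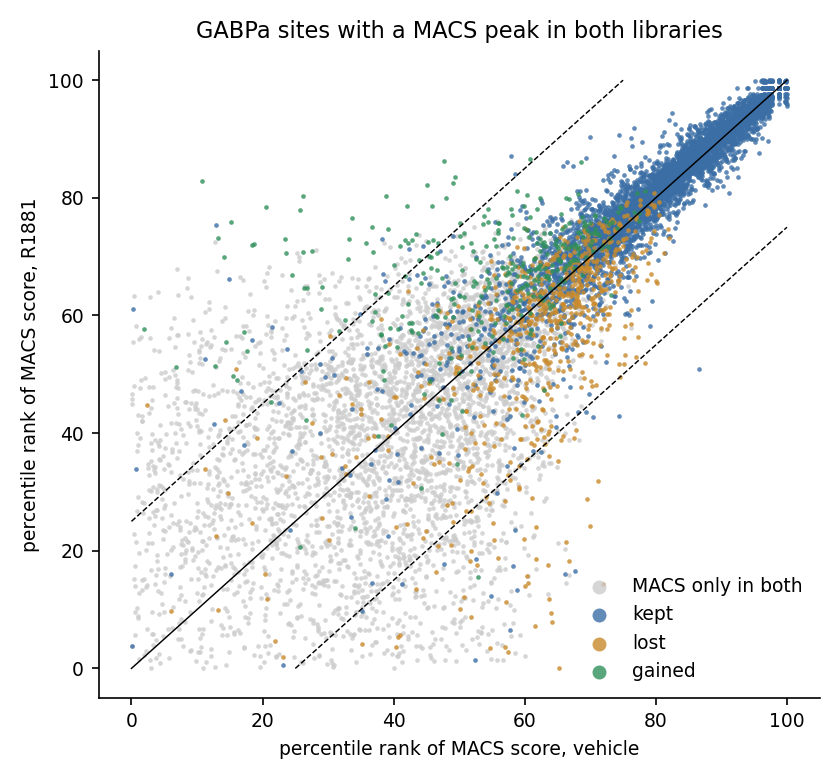
Percentile rank of the MACS score with R1881 (y axis) against that with vehicle (x axis) for the 9871 GABPα sites with a MACS peak in both libraries, coloured by class. The solid line marks equal ranks and the dashed lines a shift of 25 points, with 435 sites beyond the upper line and 380 beyond the lower one, most of them grey points at low ranks.

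High confidence peaks lay at the same place under both treatments. In 3912 kept sites with 1 high confidence interval under each treatment, the midpoints lay a median of 14.5 bp apart, 90% lay within 44 bp, and 19 sites were more than 100 bp apart. The Jurkat replicates gave a median of 16.5 bp over 4944 sites.

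Kept sites were wider than lost and gained ones. The median width of the MACS peak was 1183 bp with vehicle and 1182 bp with R1881 at kept sites, 811 bp with vehicle at lost sites and 783 bp with R1881 at gained sites. High confidence intervals were shorter, with medians of 262 bp and 249 bp at kept sites, 121 bp at lost sites and 124 bp at gained sites. The lost and gained sites also held lower ranks, and the part of rank in these widths was not tested.

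Several high confidence intervals could fall in 1 MACS peak. This was so for 11.3% of the high confidence MACS peaks with vehicle and 12.8% with R1881, with up to 14 and 15 intervals in 1 peak. Counting single intervals in place of sites put the kept share at 77.6%.

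Lost and gained sites were farther from kept sites than kept sites were from each other, as seen within 100 kb. Another site of any kind lay within 10 kb of 23.0% of kept, 21.4% of lost and 23.1% of gained sites. A kept site lay within 10 kb of 10.9% of kept sites (interval 10.0 to 11.8%), 8.23% of lost sites (6.52 to 10.3%) and 5.01% of gained sites (3.27 to 7.62%). The interval of the gained sites lay below that of the kept sites, and the interval of the lost sites overlapped both. Sites with a MACS peak in both libraries and no high confidence peak stood at 6.24%, near the gained sites. Within 100 kb the shares were 55.6% of kept (54.2 to 57.0%), 45.8% of lost (42.3 to 49.2%) and 44.4% of gained sites (39.6 to 49.3%). Sites without a high confidence peak stood lower. Their shares were 36.5% with a MACS peak in both libraries, 25.9% with vehicle alone and 23.7% with R1881 alone. The part of rank in these distances was not tested. The median distance to the nearest kept site was 78.4 kb for kept, 115 kb for lost and 118 kb for gained sites.

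Some lost and gained sites neighboured each other, although the nearest high confidence site was most often a kept one. Over all high confidence sites, 13.3% were lost and 6.64% gained. Of the 37 gained sites with another high confidence site within 10 kb, the nearest one was kept in 19, lost in 12 and gained in 6. The lost neighbours were 32.4% (interval 19.6 to 48.5%). Of the 84 lost sites with such a neighbour, it was kept in 65, gained in 12 and lost in 7. The gained neighbours were 14.3% (interval 8.37 to 23.3%). For the 604 kept sites the neighbour was kept in 86.1%.

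Lost and gained sites were found on every chromosome with at least 100 high confidence sites. On the 20 chromosomes with at least 100 high confidence sites, the kept share ran from 75.2% on chromosome 10 to 87.0% on chromosome 19, and the lost share from 8.33% on chromosome X to 17.7% on chromosome 10. The interval of the lost share included the genome-wide 13.3% on every one of these 20 chromosomes. Gained sites made up 12.2% of the high confidence sites on chromosome X (19 sites, interval 7.94 to 18.2%), above the 6.64% of all chromosomes. They made up 2.48% on chromosome 19 (13 sites, interval 1.45 to 4.19%), below it. Chromosome 19 was also the one where the kept share stood above 80.0% with its whole interval. Of the chromosomes with fewer sites, chromosome 21 had 22 lost sites among 76 (28.9%, interval 19.96 to 39.96%), above the share of all chromosomes, and 48 kept sites (63.2%, 51.9 to 73.1%). Its 519 sites of any kind had a MACS peak under both treatments in 23.3%, against 51.3% of all sites. This was not particular to chromosome 21, since another chromosome, with 1421 sites, stood at 26.7%. Chromosome 13 had 12 gained sites among 88 (13.6%, interval 7.98 to 22.3%). With so many chromosomes and 3 classes looked at, a few intervals that miss the genome-wide value are to be read with that number in mind.

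The kept sites were found in other GABPα libraries far more often than the rest. A GABPα MACS peak at t0 was present at 79.9% of kept, 27.3% of lost and 19.8% of gained sites, against 24.6% of all 19240 sites. A GABPα MACS peak in either Jurkat replicate was present at 62.0% of kept, 19.7% of lost and 19.8% of gained sites, against 24.7% of all sites. The t0 library has fewer peaks (9531) and was called against another input. Within a narrow range of rank, taking the higher of a site's ranks under the 2 treatments, the contrast was smaller between ranks 60 and 70 than between 70 and 80. Between ranks 60 and 70, a t0 peak was present at 28.5% of kept, 24.2% of lost and 17.7% of gained sites, and a Jurkat peak at 21.8%, 21.5% and 21.3%. Between ranks 70 and 80, a t0 peak was present at 61.5% of kept, 54.3% of lost and 28.3% of gained sites, and a Jurkat peak at 38.1%, 28.5% and 23.9%.

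Among the high confidence sites, the gained sites stood apart in their ERG peaks. An ERG MACS peak with R1881 was present at 188 of 399 gained sites (47.1%, interval 42.3 to 52.0%), 136 of 802 lost sites (17.0%, 14.5 to 19.7%) and 317 of 4810 kept sites (6.59%, 5.92 to 7.33%). Over all 19240 sites the share was 24.3%. It was 38.3% at sites without high confidence that had a MACS peak with R1881 alone. At those with a MACS peak in both libraries it was 32.6%, and at those with vehicle alone 19.1%. With vehicle, an ERG MACS peak was present at 23.1% of gained, 21.2% of lost and 5.32% of kept sites, against 16.7% of all sites. The intervals of gained sites (19.2 to 27.4%) and lost sites (18.5 to 24.2%) overlapped for ERG with vehicle and lay apart for ERG with R1881. For ERG, the antibody product listed in the labels is not the one listed in the methods of the study. Which antibody was used cannot be told from the files, and the libraries are called ERG here as in the labels.

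**Figure D4:**
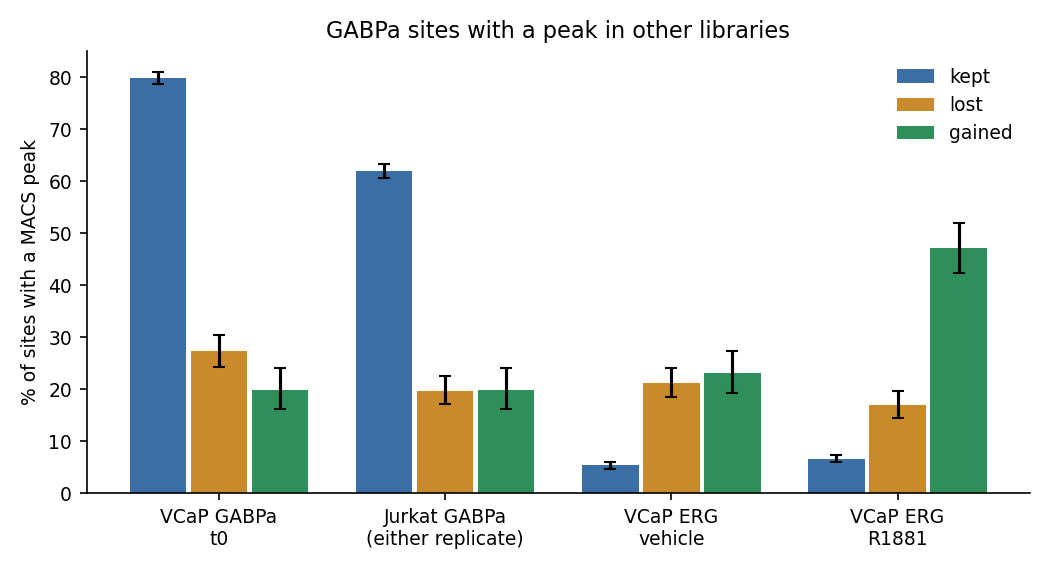
Share of kept, lost and gained GABPα sites (y axis, %) with a MACS peak in the GABPα library at t0, in either Jurkat GABPα replicate, and in the ERG libraries with vehicle and with R1881. Error bars are 95% Wilson intervals over sites, and the gained sites reach 47.1% for ERG with R1881 while lost sites stand at 17.0% and kept sites at 6.59%.

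Lost and gained sites went in opposite directions where ERG had a peak under 1 treatment only. Among gained sites, 99 (24.8%) had an ERG peak with R1881 only, 3 (0.752%) with vehicle only, 89 with both and 208 with neither. Among lost sites, 17 (2.12%) had an ERG peak with R1881 only, 51 (6.36%) with vehicle only, 119 with both and 615 with neither. Kept sites had 97 with R1881 only, 36 with vehicle only and 220 with both. ERG peaks under both treatments were also unevenly spread, at 22.3% of gained (interval 18.5 to 26.6%), 14.8% of lost (12.5 to 17.5%) and 4.57% of kept sites (4.02 to 5.2%). Over all 19240 sites, 11.4% had an ERG peak with R1881 only, 3.79% with vehicle only and 12.9% with both. The same directions were seen at sites without high confidence. With a GABPα MACS peak with R1881 alone, 27.2% had an ERG peak with R1881 only and 2.07% with vehicle only. With a GABPα MACS peak with vehicle alone, these shares were 5.53% and 8.81%. Sites with a MACS peak in both libraries and no high confidence peak had ERG peaks under both treatments in 22.9%, near the gained sites. Of the 68 gained sites without a MACS peak with vehicle, 40 (58.8%) had an ERG peak with R1881 and 10 (14.7%) had one with vehicle. Of the 94 lost sites without a MACS peak with R1881, 9 (9.57%) had an ERG peak with R1881 and 16 (17.0%) had one with vehicle.

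The ERG library with R1881 held more peaks than that with vehicle, 23947 against 19504. With the 19504 highest-scoring ERG peaks of each, the gained share with R1881 was 46.1%. It was 46.9% when the high confidence interval itself had to meet the ERG peak, and 38.3% with ERG scores of at least 100. The same minimum left 10.3% of lost and 4.72% of kept sites. By high confidence ERG peaks, the shares with R1881 were 22.3% of gained, 4.24% of lost and 2.49% of kept sites. High confidence ERG peaks are SWEMBL regions with R1881 but whole MACS peaks with vehicle.

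For sites of like rank, gained and lost sites differed clearly between ranks 60 and 80. Between ranks 60 and 70, an ERG peak with R1881 was found at 46.1% of gained, 15.9% of lost and 10.9% of kept sites. Between ranks 70 and 80 the shares were 58.0%, 22.04% and 12.1%. Above rank 80 such a peak was found at 15 of 17 gained sites (88.2%, interval 65.7 to 96.7%). It was found there at 3 of 8 lost sites (37.5%, 13.7 to 69.4%), and these intervals overlapped. Between ranks 50 and 60 the intervals of gained sites (28.3%, 18.5 to 40.8%) and lost sites (15.6%, 10.7 to 22.4%) overlapped, as they did below rank 50 (25.6%, 14.9 to 40.2%, and 12.3%, 7.59 to 19.3%). The ERG peaks at gained sites were strong ones with R1881, with a median rank of 89.3 within the ERG library (188 peaks, median score 248), while those with vehicle had a median rank of 69.1 (92 peaks, median score 89.4). At kept sites the median ERG ranks were 82.6 with R1881 and 83.3 with vehicle, and at lost sites 73.4 and 80.8.

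The shift in GABPα rank went with the treatment that had the ERG peak, over all 9871 sites with a GABPα MACS peak in both libraries. At the 572 sites with an ERG peak with R1881 only, the median GABPα shift was 10.7 points and 77.1% of sites ranked higher with R1881. At the 250 sites with an ERG peak with vehicle only, it was −7.97 points and 26.4% ranked higher with R1881. At the 1330 sites with an ERG peak under both treatments and the 7719 with neither, the medians were 0.90 and 0.58 points.

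The same was seen from the side of the shift. An ERG peak with R1881 only was present at 29.7% of sites whose GABPα rank was more than 25 points higher with R1881, and at 15.7% of those 10 to 25 points higher. It was present at 3.06% of sites with a shift between −10 and 10 points, 4.87% of those 10 to 25 points lower and 4.74% of those more than 25 points lower. An ERG peak with vehicle only went the other way, at 11.3% of sites more than 25 points lower and 2.30% of sites more than 25 points higher. ERG peaks under both treatments were found at 23.9% of sites more than 25 points lower and 22.3% of those more than 25 points higher. The shares were 19.6% and 24.1% at shifts of 10 to 25 points down and up, against 10.1% in the middle. Over all shared sites without high confidence, which made up 664 of the 815 sites shifted by over 25 points, the share was 22.9%. It was 4.57% over kept sites, and the part of class in these shares was not tested. The ERG library at t0 was not used here, and these descriptions were chosen after the peak files had been seen.

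**Figure D5:**
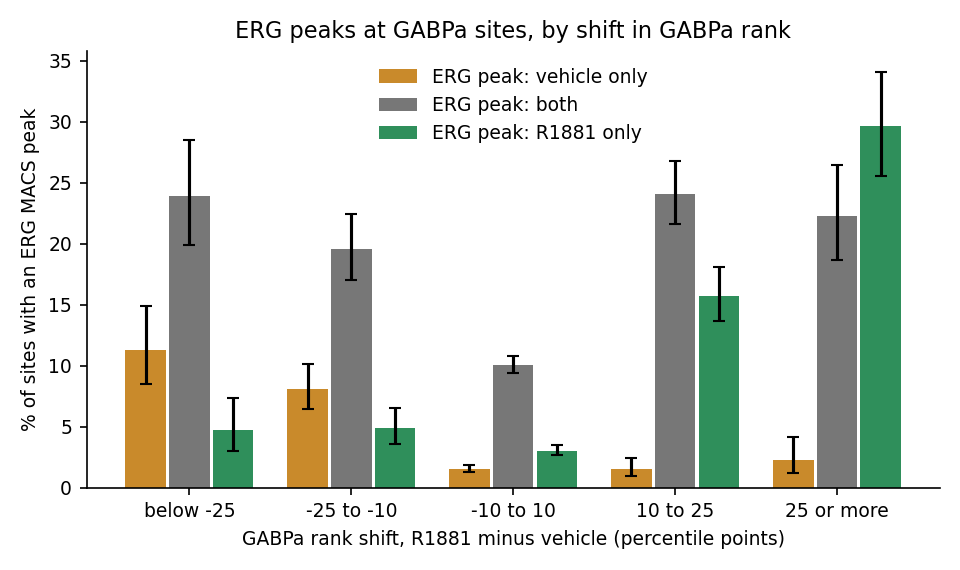
Share of GABPα sites (y axis, %) with an ERG MACS peak with vehicle only, under both treatments or with R1881 only, by the shift in GABPα percentile rank between R1881 and vehicle (x axis, points, R1881 minus vehicle). Error bars are 95% Wilson intervals over sites, and the share with an ERG peak with R1881 only reaches 29.7% at shifts above 25 points and stays at or below 4.87% in the 3 bins below 10 points.

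Turned around, the ERG peaks divided the high confidence sites unevenly. Of the 213 high confidence sites with an ERG peak with R1881 only, 45.5% were kept, 7.98% lost and 46.5% gained. Of the 90 with an ERG peak with vehicle only, 40.0% were kept, 56.7% lost and 3.33% gained. Of the 428 with an ERG peak under both treatments, 51.4% were kept, 27.8% lost and 20.8% gained. The kept share was thus low wherever ERG had a peak, and the part of GABPα rank in this was not tested. Of the 5280 with no ERG peak, 84.4% were kept, 11.6% lost and 3.94% gained. This last group held 208 of the 399 gained sites (52.1%).

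Single sites show both kinds, with and without ERG. The 5 gained sites with the highest scores and no MACS peak with vehicle were chosen by score. The first, at chr12:120853763-120854503, scored 897.12 for GABPα with R1881 (rank 81.2) and 2564.02 for ERG with R1881. The second, at chr4:85081172-85081817, scored 866.81 for GABPα and 487.3 for ERG. At both sites neither factor had a peak with vehicle, and no GABPα peak was called at t0 or in Jurkat cells.

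The sites at chr10:8666403-8667128 and chr6:88842457-88843218 were of the same kind. They scored 505.98 and 487.94 for GABPα and 374.72 and 198.4 for ERG with R1881. The remaining one, at chr11:63498014-63499715, scored 573.7 with R1881 and had no ERG peak. It did have a GABPα peak at t0 (score 539.85) and in Jurkat replicates 1 and 2 (1098.97 and 1037.93), so the vehicle library was the only GABPα library without a MACS peak there.

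The 5 lost sites with the highest scores and no MACS peak with R1881 had lower scores and little ERG. The first, at chr11:65411299-65413537, scored 819.63 with vehicle (rank 79.0) and had GABPα peaks at t0 (513.68) and in both Jurkat replicates (516.32 and 749.34). The second, at chr11:67553925-67555705, scored 587.83, with a peak at t0 (190.45) and in Jurkat replicate 2 (198.26). The others lay at chr3:60894326-60894972 (388.18), chr1:18797879-18798783 (385.21) and chr7:76949087-76949745 (320.76). Only the site on chromosome 7 had an ERG peak, with vehicle, at a score of 85.52.

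The sites on chromosome 11 among these share a stretch in which MACS and SWEMBL went apart. Between 60 and 70 Mb of chromosome 11, 42.5% of the SWEMBL regions with vehicle and 44.5% of those with R1881 had no MACS peak, against 1.54% and 1.40% elsewhere. Between 63 and 64 Mb, SWEMBL called 30 regions with vehicle and 24 with R1881, while MACS called 1 and 2 peaks. The 60 to 70 Mb stretch held 5 of the 94 lost sites without a MACS peak with R1881 and 4 of the 68 gained sites without a MACS peak with vehicle. The part of the peak calling in these 9 sites was not tested. Without the stretch, 792 sites were lost and 395 gained, and the gained share with an ERG peak with R1881 was 47.6%.

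The 5 largest upward shifts in rank held 3 sites with ERG. The site at chr7:37108294-37109114 went from a score of 55.85 with vehicle to 1026.38 with R1881, or from rank 10.7 to 82.8. Its ERG peak with R1881 scored 62.34, below the median of 77.51 in that ERG library. It had GABPα peaks in both Jurkat replicates (197.77 and 131.38). The site at chrX:67500497-67500973 went from 59.14 to 565.15 with an ERG peak of 517.67 with R1881, and the one at chr18:9451628-9452214 from 57.6 to 455.64 with an ERG peak of 332.22. None of these had an ERG peak with vehicle. The other sites, at chr11:64366019-64369825 (57.47 to 539.18) and chr11:66034030-66035650 (50.08 to 211.3), had no ERG peak and lie in the stretch of chromosome 11 described above.

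Of the 5 largest downward shifts, 1 had an ERG peak. The site at chr4:6224561-6225299 went from 300.39 with vehicle to 50.04 with R1881, or from rank 65.2 to 0.127. The site at chr9:34426771-34427845 went from 470.82 to 57.56 and had ERG peaks under both treatments (259.49 and 172.76). The sites at chr2:233585957-233586579 (281.12 to 53.59), chr22:37729011-37729741 (278.76 to 54.54) and chr15:79831612-79832889 (197.09 to 51.11) had no ERG peak. All 5 were lost sites, and only the one on chromosome 9 had a GABPα peak at t0.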

How the data were processed

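GABPα ChIP-seq was analysed in VCaP cells with vehicle and with R1881, beside the GABPα libraries of t0 and Jurkat and the ERG libraries of VCaP with vehicle and R1881. The authors aligned reads to hg18 with BWA 0.5.5, removed reads with an alignment quality under 15 and duplicates, and called peaks against input with MACS and SWEMBL. By the file headers both GABPα treatments were called against the same input, and the labels list inputs for t0 and vehicle. The deposited MACS and high confidence files give a score per peak, and the deposited SWEMBL files give intervals with other values, which were not used. Replicates were not pooled, and read depth is not in the files. Peaks that overlap by at least 1 bp were joined with Python 3.11.15 (numpy 2.4.6, scipy 1.17.1), and a site with several peaks took the highest score. The functions were tested on simulated peaks with known classes. The named lost and gained sites were the 5 of each with the highest scores among those without a MACS peak in the other library. The kept sites were the 5 with the highest value of the lower of both ranks. The 5 largest rank shifts each way were taken among sites with a MACS peak in both libraries and a high confidence peak in at least 1. Sites, classes and lists were chosen with earlier results of these data known, among them the overlap of GABPα with ERG, which is not independent support. Other peak minimums, overlaps, sets and regions were tried as alternatives. Sites on chromosome 8 are not named. No hg18 annotation or sequence was used here, so genes and motifs are not given.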

Additional observations from a re-analysis of the deposited data

Results flagged for a closer look

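Some GABPα signal lies outside the comparison, because a high confidence peak requires a MACS peak. With vehicle, 166 SWEMBL regions (2.54%) had no MACS peak of that library, and 106 of these were also called by SWEMBL with R1881. With R1881, 149 SWEMBL regions (2.43%) had no MACS peak, and 121 of these were also called by SWEMBL with vehicle. Of these regions, 68 with vehicle and 65 with R1881 lie between 60 and 70 Mb of chromosome 11. The t0 library had 15 of its 55 such regions there, while the Jurkat replicates had 64 of 2487 and 48 of 2059. Of the SWEMBL regions in the stretch, 23.8% at t0 had no MACS peak, against 1.41% elsewhere. In Jurkat replicates 1 and 2 this was 37.2% and 31.0%, against 22.9% and 17.2% elsewhere. A GABPα MACS peak in a Jurkat replicate was present at 46 of the 166 regions and at 39 of the 149 regions. The cause was not tested.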

How the results depend on the processing

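The kept share stayed within its interval when sites were joined by 50% of the shorter peak, limited to chromosomes 1 to 22 or limited to scores of at least 100. It was 83.3% with the 5000 highest-scoring peaks of each library, 77.6% with single intervals and 77.5% with SWEMBL regions alone. A score of at least 100 gave 177 lost and 120 gained sites without a MACS peak in the other library, by construction, and 71.6% of sites shared. With the 5000 highest-scoring peaks, 454 sites were lost, 11 of them without a MACS peak. With the 1000 highest-scoring peaks, 106 were lost and 106 gained, with 0 and 0 lacking a MACS peak. In sites with high confidence under both treatments, 36 had a shift over 25 points. The difference in median width from kept sites fell from 372 to 141 bp for lost and from 399 to 125 bp for gained sites with high confidence intervals, and equally with SWEMBL regions.

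With high confidence peaks in the other library, the shares for t0, Jurkat, ERG with vehicle and ERG with R1881 were 54.8%, 60.02%, 1.02% and 2.49% of kept sites, 1.12%, 14.2%, 3.74% and 4.24% of lost sites, and 0.501%, 13.0%, 2.01% and 22.3% of gained sites. The deposited high confidence ERG intervals are whole MACS peaks with vehicle (743 of 743) and SWEMBL regions with R1881 (2229 of 2229). With whole MACS peaks in both, the shares for ERG with vehicle and R1881 were 1.02% and 2.52% of kept, 3.74% and 4.24% of lost, and 2.01% and 22.3% of gained sites. With ERG scores of at least 100, the shares for ERG with vehicle and R1881 were 3.39% and 4.72% of kept, 13.2% and 10.3% of lost, and 9.77% and 38.3% of gained sites. Leaving out either Jurkat replicate gave 55.0 to 56.2% of kept sites, and 16.5 to 18.0% of lost sites. No paired analysis was possible because each VCaP treatment has 1 library and no fit between groups was made. The SWEMBL, ERG and chromosome 11 alternatives were chosen after seeing the data. Without replicates and read depth, a difference between the treatments cannot be told apart from a difference between libraries.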

Other observations

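The weakest GABPα calls, MACS peaks without high confidence in 1 treatment alone, also carried ERG peaks unevenly. Of the 5029 such sites with R1881 alone, 38.3% had an ERG MACS peak with R1881 and 13.2% had one with vehicle. Of the 4178 such sites with vehicle alone, 19.1% had an ERG peak with R1881 and 22.4% had one with vehicle. An ERG peak with R1881 only was present at 1366 of the former and 231 of the latter, and an ERG peak with vehicle only at 104 and 368. A GABPα MACS peak at t0 was present at 2.09% of those with R1881 alone and 2.99% of those with vehicle alone, and one in either Jurkat replicate at 6.92% and 9.96%.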
